A study of Mus musculus with 7 samples.

Results

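The genes described here encode enzymes of cholesterol synthesis, the proteins that sense sterols and switch that synthesis on and off, and a few carriers and exporters of cholesterol. They were taken from a list of 28 gene names and matched by name in the deposited tables, where all 28 of 54532 genes were found and all 28 were among the 17975 genes with enough counts to be tested. By role, 7 act in the mevalonate steps, 11 in the sterol steps that follow, 5 in regulation and 5 in transport.

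Messenger RNA was sequenced from pools of cells sorted by fluorescence from the olfactory epithelium of young mice. The mature sensory neurons were sorted from OMP-GFP mice at postnatal days 2, 7 and 16 (P2, P7 and P16, 3 libraries), in which green fluorescent protein follows the olfactory marker protein gene Omp. Intermediate progenitor cells came from Neurog1-GFP mice at P3, P7, P9 and P16 (4 libraries), in which the reporter follows Neurog1, a transcription factor of neuronal progenitors. With 1 library for every age of a population, ages stood in for replicates. Population and mouse line coincide and cannot be told apart, no treatment is named for any group, and the labels give neither the sex of the animals nor whether libraries came from separate animals. The p-values then measure only the spread between these libraries, which may be partly technical and holds age.

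Cholesterol is built from acetyl-CoA. The mevalonate steps make the isoprenoid farnesyl diphosphate, which also feeds protein prenylation and ubiquinone, and the sterol steps join it into squalene, close the ring to lanosterol and trim that to cholesterol. When sterols in the endoplasmic reticulum are low, SCAP escorts the SREBP transcription factors to the Golgi, where they are cut and released to activate these genes. INSIG proteins hold SCAP back when sterols are high. Neurons need cholesterol for the membrane of growing axons, dendrites and cilia, and adult neurons are known to take part of it from glia.

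Each library held 24203965 to 25930727 counts on genes. Neurog1 separated the populations, at 0.84 to 1.85 TPM (transcript abundance scaled for length and to a fixed total per library) in mature neurons and 292 to 698 TPM in progenitors. Omp did not: in mature neurons it stood at 1066 TPM at P2, 1413 TPM at P7 and 1630 TPM at P16, and at 1323 to 2371 TPM in progenitors (log2 fold -0.41, edgeR adjusted p = 0.179). Of 10 mature neuron markers, Omp was the exception, since the other 9 were called higher in mature neurons, and their sum with Omp was 14080 to 18520 TPM against 5145 to 7735 TPM. The progenitor pools thus also held RNA of mature neuron genes. All 8 progenitor markers and all 8 cell division markers were called lower in mature neurons. Some markers of cells outside the neuronal lineage also differed, beside 28.8% of all tested genes called higher in mature neurons and 30% called lower. Of 10 leukocyte markers, 8 were called higher (sum 23.99 to 87.55 TPM against 12.18 to 20.14 TPM). Of 7 markers of ensheathing glia, 5 were called higher (43.42 to 82.56 TPM against 42.21 to 55.01 TPM). Mbp, in the same sum, was called lower, at 8.95 to 10.72 TPM against 30.23 to 37.53 TPM (log2 fold -1.75). For sustentacular cells, the supporting cells of the epithelium, 4 of 9 were called higher (3415 to 4024 TPM against 2093 to 3239 TPM). For endothelium and fibroblasts, 3 of 8 tested were called higher (75.5 to 150.2 TPM against 51.29 to 90.38 TPM). The glial and the endothelial and fibroblast sums overlapped between the populations. No marker on these lists was at 0 in a whole population, and the lowest were Ptprc at 0.04 TPM and Cdh5 at 0.03 TPM in a progenitor library. The part of these cells in the results below was not tested.

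The stretches of DNA before the start of 5 of the genes are shown because they belong to members whose levels separated the populations, 3 lower and 2 higher in mature neurons, and because 4 of the 5 carry the CCAAT box, a short element bound by NF-Y, a factor known to act beside the SREBPs. Each is the 180 bases upstream of a start site in RefSeq on GRCm38.p6, 5′ to 3′ on the strand of the gene. Hmgcs1 is at chr13:119690171-119690350 (plus strand), Mvd at chr8:122443423-122443602 (minus), Nsdhl at chrX:72918341-72918520 (plus), Ebp at chrX:8193513-8193692 (minus) and Scap at chr9:110333108-110333287 (plus). Capitals mark CCAAT or, on the other strand, ATTGG, and in Hmgcs1 also a match to TCACNCCAC, a form of the sterol regulatory element that SREBPs bind.
Hmgcs1: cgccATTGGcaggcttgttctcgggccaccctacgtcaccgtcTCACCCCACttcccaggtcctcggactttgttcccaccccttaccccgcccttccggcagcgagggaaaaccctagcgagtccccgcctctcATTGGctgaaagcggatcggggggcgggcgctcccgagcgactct
Mvd: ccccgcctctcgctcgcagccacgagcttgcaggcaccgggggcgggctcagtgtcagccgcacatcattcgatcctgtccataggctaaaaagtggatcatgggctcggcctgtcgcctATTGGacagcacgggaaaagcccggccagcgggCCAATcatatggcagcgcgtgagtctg
Nsdhl: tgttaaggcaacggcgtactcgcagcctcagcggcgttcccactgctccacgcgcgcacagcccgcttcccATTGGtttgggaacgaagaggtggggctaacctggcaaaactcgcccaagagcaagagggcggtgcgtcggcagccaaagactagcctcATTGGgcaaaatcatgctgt
Ebp: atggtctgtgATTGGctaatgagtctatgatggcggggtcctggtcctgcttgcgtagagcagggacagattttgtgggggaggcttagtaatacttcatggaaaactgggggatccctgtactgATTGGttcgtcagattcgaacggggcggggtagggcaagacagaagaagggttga
Scap: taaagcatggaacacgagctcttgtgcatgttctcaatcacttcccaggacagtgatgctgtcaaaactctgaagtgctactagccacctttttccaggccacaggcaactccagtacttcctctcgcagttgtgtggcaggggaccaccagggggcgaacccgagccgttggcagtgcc

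Both motifs were searched on both strands in the 250 bases before each start site, and neither overlaps the other in these stretches. The table held promoters for 22 of the 28 genes. CCAAT was found in 19 of these 22 (86.4%), and in 14 of the 15 with a promoter among the synthesis genes (93.3%), against 37.5% of 27025 genes in the table and 39.9% of the 11692 genes with a promoter and a mean of at least 1 TPM. The 3 without it in this window were Acat2, Scap and Abca1. Genes with several start sites had more chances to hold a match: counted by promoter, it was 20 of 30 (66.7%) against 33.8%. TCACNCCAC was found in 1 of the 22, Hmgcs1, from -137 to -129 bases of the start, against 1.22% of all genes. The boxes nearest the start lay at -45 to -41 in Hmgcs1, -27 to -23 in Mvd, -20 to -16 in Nsdhl and -55 to -51 in Ebp. These are matches of letters and are given as a description.

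In TPM the 28 genes spanned a wide range of levels. Fdps, which makes farnesyl diphosphate, had the highest mean in both populations (171 TPM ± 35.7 (SD, n = 3) in mature neurons and 289.8 TPM ± 29.3 (SD, n = 4) in progenitors). Abca1, an exporter of cholesterol to lipoproteins, had the lowest in both, at 0.46 to 0.83 TPM and 0.65 to 0.72 TPM. The 18 synthesis genes in mature neurons summed to 1337 TPM at P2, 1320 TPM at P7 and 854.5 TPM at P16, and to 1672, 1649, 1497 and 1580 TPM in progenitors at P3, P7, P9 and P16. All 3 sums of mature neurons were below all 4 of progenitors.

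**Figure D1:**
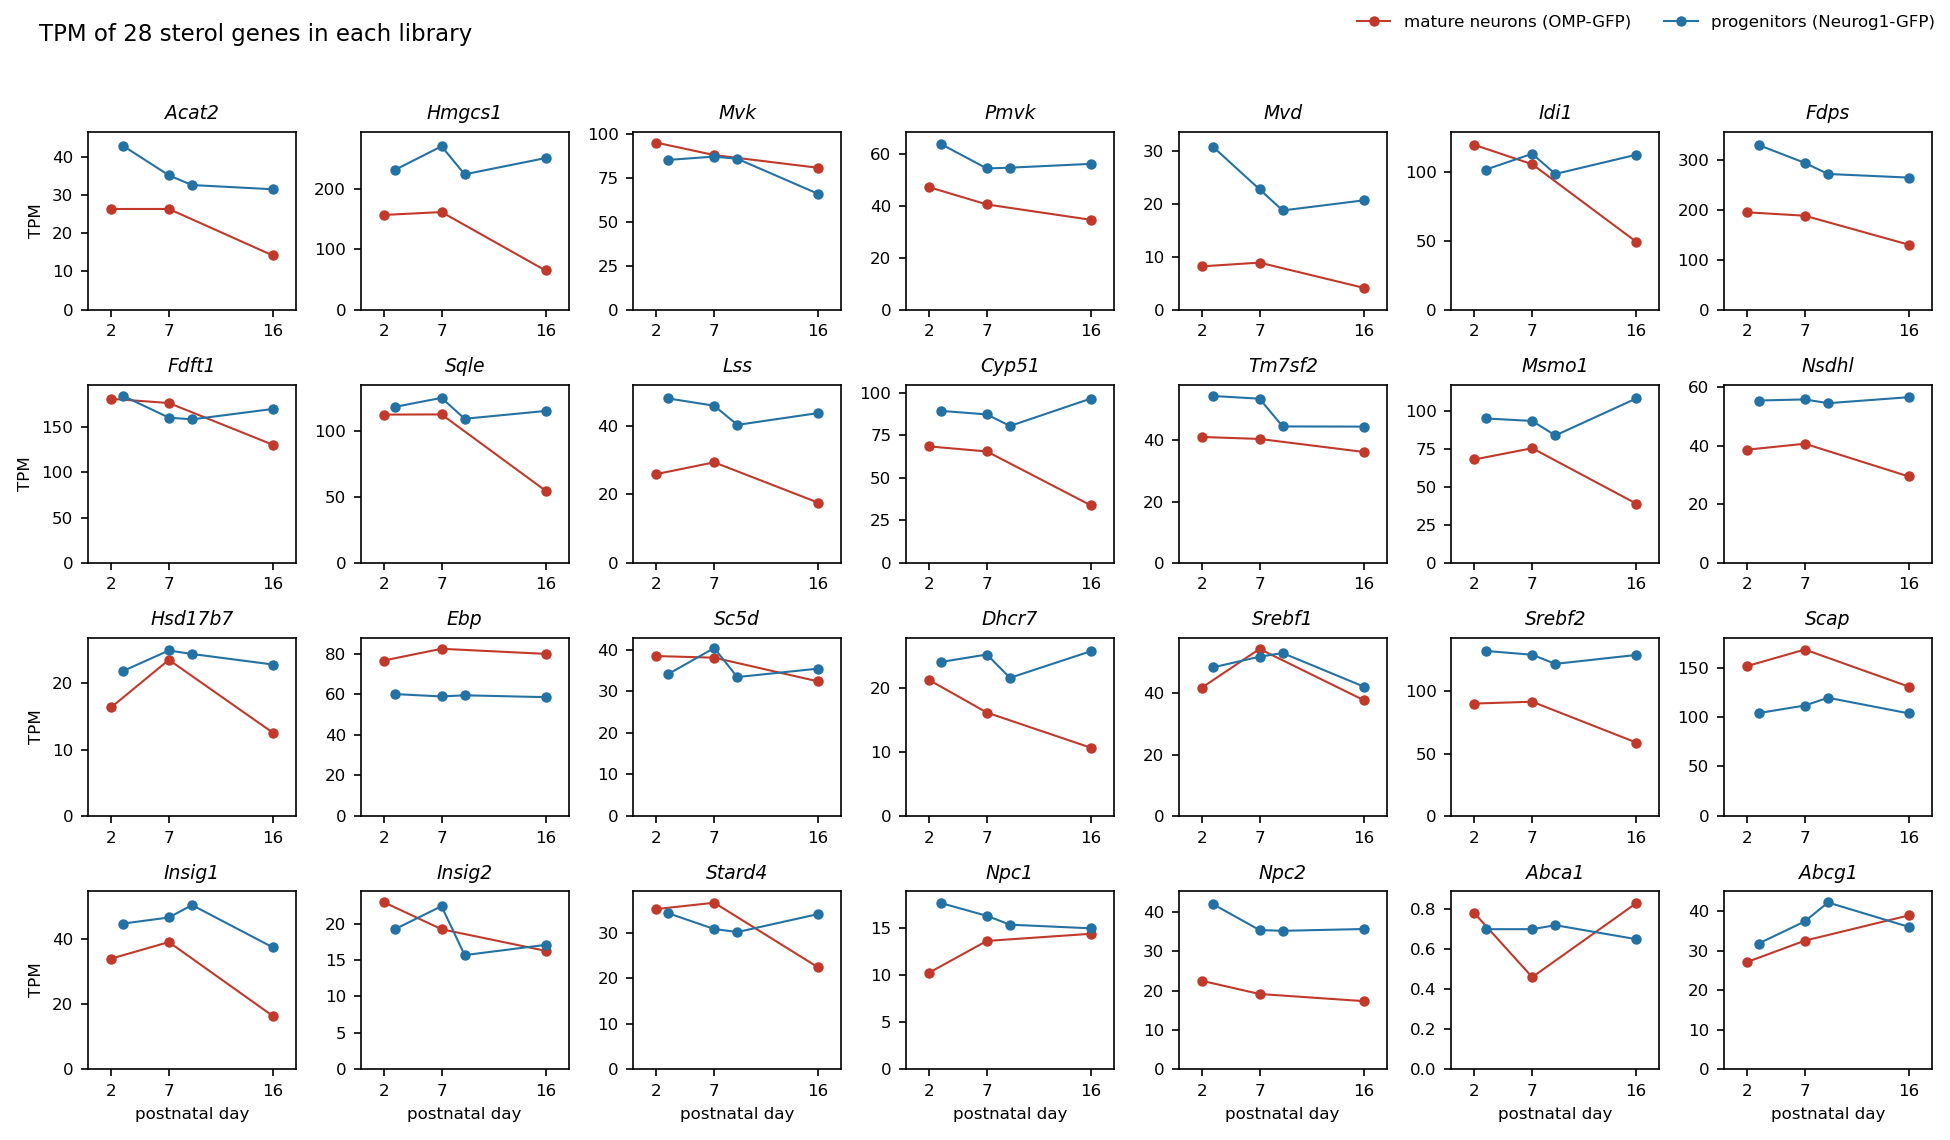
TPM of each of the 28 genes (vertical axis, from 0) against postnatal day, 1 point per library, with mature neurons in red and progenitors in blue. Hmgcs1, Mvd, Lss and Srebf2 have all 3 mature neuron points below all 4 progenitor points, Ebp and Scap have all of them above, and in most panels the lowest red point is the P16 library.

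The first comparison asked which of these genes separate mature neurons from the progenitors they come from. Of the 28, 11 were lower in mature neurons and 2 were higher at an adjusted p under 0.05 (edgeR quasi-likelihood test, Benjamini-Hochberg over all tested genes), and 15 did not pass. The populations differ widely: 30% of all tested genes were called lower and 28.8% higher, so the 11 lower calls of 28 stood somewhat above the share of all genes and the 2 higher calls below it. The members' median log2 fold was -0.36, beside 0.01 over all tested genes. By TPM, 14 members had every mature neuron library below every progenitor library, as did 36.3% of tested genes. In 2 members every one was above, and the share of all genes above was not computed. In sorted pools a lower share of a transcript can come from fewer cells of a type or from less RNA per cell, which cannot be told apart.

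In the mevalonate steps, 4 of 7 genes were lower in mature neurons, none was higher, and the median log2 fold was -0.59. Mvd, the decarboxylase that makes isopentenyl diphosphate, had the lowest fold of all members. In mature neurons it stood at 8.16 TPM at P2, 8.87 TPM at P7 and 4.12 TPM at P16, and it stood at 30.6, 22.7, 18.7 and 20.6 TPM in progenitors at P3, P7, P9 and P16. Every mature neuron library was below every progenitor library (log2 fold -1.61 ± 0.28 (SE), adjusted p = 0.00145). Hmgcs1, the synthase that makes HMG-CoA, was at 157, 162 and 64.9 TPM in mature neurons and 232, 271, 224 and 251 TPM in progenitors. The groups did not overlap, and the P16 mature neuron library was far below the other two (log2 fold -0.85 ± 0.27, adjusted p = 0.0243). Without that library the log2 fold was -0.54 (adjusted p = 0.00128), and without the P7 progenitor library the call was lost (adjusted p = 0.0549).

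Fdps was lower as well, at 195, 188 and 130 TPM against 329, 294, 272 and 264 TPM (log2 fold -0.88 ± 0.20, adjusted p = 0.00577), again without overlap. Its count result rests on few reads: per unit of TPM and length, the gene table held 0.052 of the reads that the median gene had, and Fdps shares exon sequence with Gm43738 on its own strand. Pmvk, the kinase before Mvd in the pathway, had a smaller difference, with 40.8 TPM ± 6.29 (SD, n = 3) against 57.3 TPM ± 4.46 (SD, n = 4) (log2 fold -0.39, adjusted p = 0.02). Without the P7 mature neuron library it did not pass (adjusted p = 0.0623). Acat2, the thiolase that joins the first acetyl units, stood at 26.4, 26.4 and 14.2 TPM against 31.5 to 42.9 TPM, which do not overlap, but narrowly missed the threshold (log2 fold -0.59, adjusted p = 0.0558). It was called lower in 6 of 14 alternatives. Mvk, mevalonate kinase, had a log2 fold of 0.21 (adjusted p = 0.083), and Idi1, the isomerase of isopentenyl diphosphate, of 0.07 (adjusted p = 0.859), with overlapping levels in both cases. Idi1 had only 0.025 of the median gene's reads on the same measure, so its count result is uncertain.

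In the sterol steps, 5 of 11 genes were lower and 1 was higher, with a median log2 fold of -0.49. Lss, lanosterol synthase, closes the sterol ring. It was at 26, 29.4 and 17.6 TPM in mature neurons and at 48.1, 46, 40.4 and 43.8 TPM in progenitors, without overlap (log2 fold -0.66 ± 0.13, adjusted p = 0.00236). Nsdhl, which removes a methyl group of lanosterol, was at 38.6, 40.7 and 29.5 TPM against a narrow 54.5 to 56.5 TPM (log2 fold -0.51 ± 0.09, adjusted p = 0.00188). Cyp51, the lanosterol demethylase, was at 68.5, 65.6 and 33.8 TPM against 80.6 to 96.8 TPM (log2 fold -0.55 ± 0.20, adjusted p = 0.0415). This call was the least secure: leaving out any 1 progenitor library gave an adjusted p of 0.0559 to 0.0829, and without the P16 mature neuron library the log2 fold was -0.31 (adjusted p = 0.0111).

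Dhcr7, which reduces 7-dehydrocholesterol, was at 21.3, 16.2 and 10.7 TPM against 21.7 to 25.9 TPM (log2 fold -0.56, edgeR adjusted p = 0.0119). Its P2 mature neuron library was just under the lowest progenitor library. Tm7sf2, a sterol reductase, was lower by counts (log2 fold -0.59, adjusted p = 0.0221) and by less in TPM (39.2 TPM ± 2.66 (SD, n = 3) against 49.2 TPM ± 5.51 (SD, n = 4); limma on log2(TPM + 1), log2 difference -0.32, adjusted p = 0.0248). It shares exon sequence with Vps51 on its own strand, and its count call was lost without the P3 or the P7 progenitor library (adjusted p = 0.053 and 0.0581). Ebp, the isomerase that moves the double bond within the ring, went the other way. It was at 76.6, 82.4 and 79.9 TPM in mature neurons and at 60.1, 58.9, 59.5 and 58.6 TPM in progenitors (log2 fold 0.59 ± 0.08, adjusted p = 0.000395). Both groups were tight and did not overlap.

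The other 5 sterol step genes were not called. Msmo1, a methyl sterol oxidase, was at 39.1 to 75.7 TPM against 84.1 to 109 TPM without overlap (log2 fold -0.49, adjusted p = 0.0561), and Hsd17b7, a reductase of the same demethylation, had a log2 fold of -0.41 (adjusted p = 0.058). Msmo1 was called lower in 7 of 14 alternatives and Hsd17b7 in 4. Fdft1, squalene synthase, had 163 TPM ± 28.1 (SD, n = 3) in mature neurons and 168 TPM ± 11.9 (SD, n = 4) in progenitors (adjusted p = 0.544). Sqle, the epoxidase that follows it, was at 113, 113 and 54.8 TPM against 109 to 125 TPM, so the 2 earlier mature neuron libraries lay within the progenitor range (adjusted p = 0.396). Sc5d, a late desaturase, had 36.3 TPM ± 3.42 (SD, n = 3) and 35.8 TPM ± 3.15 (SD, n = 4) (adjusted p = 0.703).

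Among the 5 regulators, 1 was lower, 1 was higher and 3 were not called. Srebf2 encodes the SREBP best known for driving cholesterol synthesis. It was at 90.2, 91.7 and 59 TPM in mature neurons and at 132, 129, 122 and 129 TPM in progenitors, without overlap (log2 fold -0.51 ± 0.13, adjusted p = 0.00935). Scap, its escort, was higher: 152, 168 and 131 TPM against 104, 112, 120 and 104 TPM (log2 fold 0.63 ± 0.07, adjusted p = 0.000168), again without overlap. The adaptor and the factor it carries therefore stood on opposite sides of the comparison. Srebf1, whose product acts more on fatty acid genes, had 44.7 TPM ± 8.70 (SD, n = 3) and 48.9 TPM ± 4.89 (SD, n = 4) (adjusted p = 0.997). The retention factors Insig1 (log2 fold -0.34, adjusted p = 0.272) and Insig2 (0.15, adjusted p = 0.182) overlapped between the populations.

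Of the 5 transport genes only Npc2, a lysosomal protein that binds cholesterol released from lipoproteins, was called. It was at 22.5, 19.1 and 17.3 TPM in mature neurons against 41.9, 35.4, 35.2 and 35.7 TPM in progenitors (log2 fold -0.76 ± 0.11, adjusted p = 0.000612). Npc1, its membrane partner, was at 10.3, 13.7 and 14.4 TPM against 15 to 17.7 TPM and did not pass (log2 fold -0.14, adjusted p = 0.37). Stard4, a soluble sterol carrier, the exporter Abcg1 and Abca1 had log2 folds of 0.13, -0.04 and -0.07 with adjusted p of 0.517, 0.845 and 0.863. Of all members, Hmgcs1, Idi1, Fdft1, Lss, Cyp51, Srebf1, Scap and Npc1 overlap an exon of an opposite-strand gene, Srebf1 also one of its own strand, and as no source states how strand was used in counting, their reads cannot be told apart from those of the partner.

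**Figure D2:**
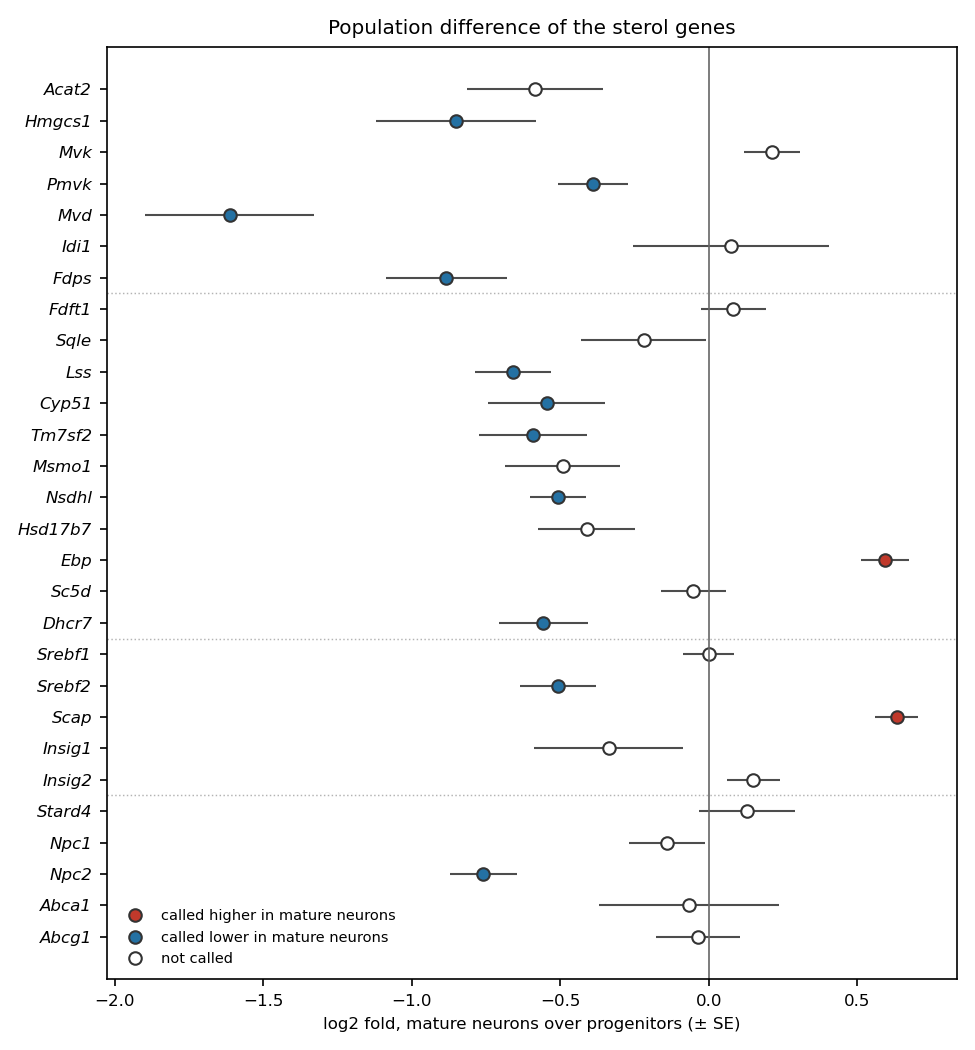
log2 fold of mature neurons over progenitors for the 28 genes (edgeR, all 7 libraries; bars are ± 1 SE), with dotted lines between the mevalonate, sterol, regulator and transport genes. The 11 genes called lower are blue, Ebp and Scap, called higher, are red, and the 15 not called are open.

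The rest of the pathway was read from lists of genes that are not members. The counts of every list stand beside 28.8% of all tested genes called higher and 30% called lower. Among 18 tested genes of synthesis, regulation and uptake, 5 were higher and 4 lower. The higher ones included Erlin2 (log2 fold 0.76), Erlin1 (0.88) and Rnf139 (0.86), which act in the sterol-dependent breakdown of pathway proteins at the endoplasmic reticulum. Erlin1 was at 42.8 to 51 TPM against 25.9 to 30.1 TPM. Mylip, the ligase that sends lipoprotein receptors for degradation, was lower (-0.79, adjusted p = 0.000856).

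Fatty acid synthesis, the other branch under SREBP control, had 8 of 16 genes lower and 5 higher. Fasn, fatty acid synthase, was at 5.73, 6.32 and 5.64 TPM in mature neurons and at 24.3, 23.4, 18.5 and 18.2 TPM in progenitors (log2 fold -2.08 ± 0.18, adjusted p = 3.75e-05). The desaturases Fads2 (-2.03) and Fads1 (-1.16) were also lower. Me1, the malic enzyme that supplies NADPH, was higher (1.62), as were Lpin1 (0.67) and Mid1ip1 (0.58). The list thus held large differences on both sides.

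Of 16 genes of intracellular sterol transport, 6 were higher and 3 lower, and the Gramd1 family, whose products carry cholesterol from the plasma membrane to the endoplasmic reticulum, was on both sides. Gramd1c was at 518, 625 and 632 TPM in mature neurons and at 185 to 261 TPM in progenitors (log2 fold 1.56), while Gramd1a was lower (-0.89), as was Gramd1b by a small amount (-0.21, adjusted p = 0.0248). The Gramd1b call was lost in 6 of 14 alternatives (adjusted p up to 0.333), namely with no filter, in the P7 and P16 libraries alone, and without the P2 or P16 mature neuron or the P3 or P9 progenitor library. Osbpl1a (0.71) and Lamp1 (0.83) were higher, and Osbpl2 (-0.80) was lower. The isoprenoid branches had 4 of 12 genes higher and none lower, among them Coq2 of ubiquinone synthesis (0.69), the farnesyltransferase subunit Fnta (0.30) and Icmt (0.29), which methylates prenylated proteins and was not called on either TPM scale (adjusted p = 0.113).

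Lipoproteins and other lipid exporters had 6 of 9 tested genes higher and none lower. Abca2 was at 42.6 to 53 TPM against 20.9 to 30.3 TPM (log2 fold 1.13), Abca3 had a log2 fold of 0.99 and Pltp, at only 2.47 to 2.56 TPM against 1.02 to 1.68 TPM, one of 1.26. Most of the leukocyte and ensheathing glia markers given above moved the same way, though Mbp did not, and their part in this list was not tested. In the small oxysterol and bile acid list, with 4 genes tested, Cyp46a1, the neuronal cholesterol hydroxylase, was higher (0.78, adjusted p = 0.0407) and Cyp39a1 was lower (-1.26, adjusted p = 0.00127). Cyp46a1 stood at 8.59, 7.26 and 3.83 TPM against 2.31 to 4.09 TPM, with the P16 mature neuron library inside the progenitor range. Its call was lost in 6 of 14 alternatives (adjusted p up to 0.148), namely without the P2 or P7 mature neuron or the P3, P9 or P16 progenitor library and in the P7 and P16 libraries alone.

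The next question was whether the genes change between the first and the third postnatal week. A single slope on log2 of the postnatal day, fitted to both populations, called none of the 28 members and 0% of the tested genes (edgeR, adjusted p under 0.05). At an unadjusted p under 0.05, 3746 genes passed, and 11.2% of tested genes passed with a falling slope, against 10 of the 28 members. These 10 were Mvd (log2 change -0.28 per doubling of age), Acat2 (-0.24), Fdps, Tm7sf2, Dhcr7, Npc2, Srebf2, Pmvk, Fdft1 and Mvk (-0.09). Abca1 (0.31) and Abcg1 (0.16), whose products export cholesterol, were the 2 members with a rising slope at that level, against 9.64% of tested genes, and their smallest adjusted p was 0.1. The median slope was -0.10 for the members and 0.00 for all genes.

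DESeq2 called 1500 genes over age, among them 3 members: Acat2 and Mvd falling and Abcg1 rising. In edgeR without the P7 mature neuron library, 986 genes were called, with Acat2, Mvd and Fdps falling (adjusted p = 0.0289, 0.0368 and 0.0481). Much of the members' median came from 1 library. Without the P16 mature neurons it was 0.0004, 2 members passed at an unadjusted p under 0.05 and none was called. In the 4 progenitor libraries alone it was -0.03. The slope in mature neurons against that in progenitors was called different for no member and for 0% of genes. At an unadjusted p under 0.05 5.98% of genes passed, and so did 2 members, Npc1 (difference 0.28 ± 0.06 SE, mature neurons minus progenitors, adjusted p = 0.806) and Idi1 (-0.55 ± 0.22, adjusted p = 0.806). This count moved with the libraries: it was 15 members (of 2262 genes) without the P2 mature neurons, where the members' median difference was -0.38, 7 (of 1668) without the P7 mature neurons, 10 (of 1602) with linear postnatal day, and 1 without any 1 progenitor library. No member was called in any of these fits.

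Because this library stood low in so many panels, the P16 level was set against the mean of the earlier ages in each population, a description chosen after the values were seen and with 1 library at P16 in each. In 21 of the 28 members P16 mature neurons had the lowest TPM of all 7 libraries. The share of all genes with this order was not computed, so the count cannot be weighed against it. Of the 27 members with a mean of at least 1 TPM, 13 (48.1%) were lower by 1.5-fold or more, against 17.1% of 15749 genes with such a mean, and none was higher by that much. The median member stood at 67.9% of its earlier level and the median gene at 94.2%. In P16 progenitors no member was lower by 1.5-fold, against 7.12% of genes, and the median member stood at 97.4%.

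By role, 10 of the 18 synthesis genes and 2 of the 5 regulators were 1.5-fold lower in TPM at P16 in mature neurons. So was 1 of the 4 transport genes. Hmgcs1 was 59.3% below the mean of P2 and P7, Idi1 56.2%, Insig1 55.3%, Mvd 51.6%, Sqle 51.4% and Cyp51 49.6%. Srebf2 was 35.2% below and Stard4 37.7%. Between P2 and P7 these 8 genes differed less: the ratio of P7 to P2 ran from 0.883 for Idi1 to 1.15 for Insig1, with 1.03 for Hmgcs1 and 1.09 for Mvd. A few members stood apart from the rest. Ebp at P16 was 1.005 times its earlier level, and Npc1 and Abcg1 stood above theirs, at 1.205 and 1.305 times.

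**Figure D3:**
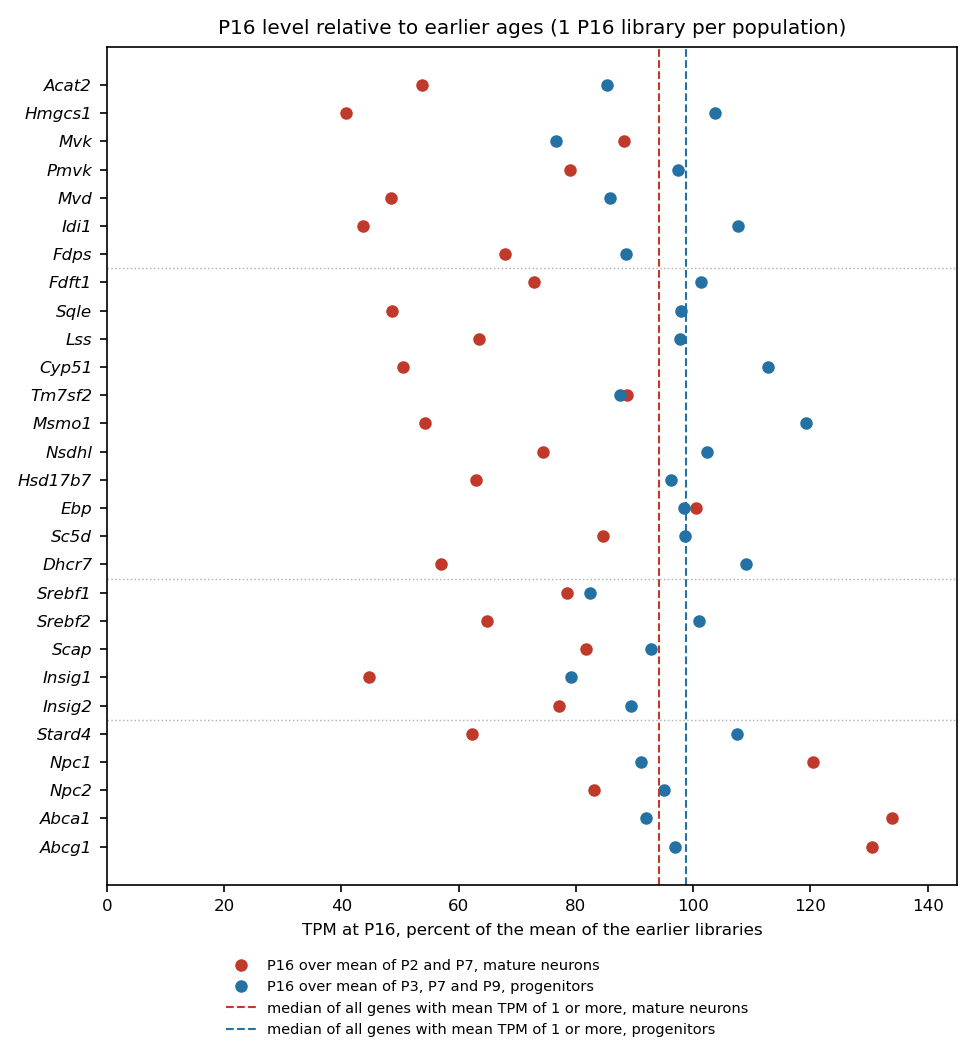
TPM at P16 as a percentage of the mean of the earlier libraries for each of the 28 genes, with mature neurons (P2 and P7) in red and progenitors (P3, P7 and P9) in blue. Dashed lines are the medians of all genes with a mean of at least 1 TPM, at 94.2% and 98.7%; most red points of synthesis genes lie well to the left of the red line and the blue points lie around the blue one.

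Other marker levels moved in the same library. The immature neuron sum was 1332, 1395 and 892.6 TPM in P2, P7 and P16 mature neurons and the cell division sum was 61.78, 50.47 and 30.04 TPM, while the leukocyte sum was 34.52, 23.99 and 87.55 TPM, the glial sum 43.42, 57.53 and 82.56 TPM, the endothelial and fibroblast sum 78.16, 75.5 and 150.2 TPM and the mature neuron sum 14080, 15020 and 18520 TPM. Like the immature neuron and cell division sums, the sustentacular sum was lowest at P16, at 4024, 3974 and 3415 TPM in the same order. Of its 9 markers, 7 were lowest at P16 among mature neuron libraries. Within the endothelial and fibroblast sum, Col1a1 stood at 3.17, 9.35 and 50.53 TPM and Col1a2 at 3.3, 6.16 and 45.93 TPM. Dcn, in the same sum, fell, at 65.19, 54.4 and 44.28 TPM. It was the 1 of these 9 markers lowest at P16 among mature neuron libraries. Immature neuron, division and sustentacular sums were thus lowest, and mature neuron, leukocyte, glial and endothelial and fibroblast sums highest, in the mature neuron library where the synthesis genes were lowest. Their part in the P16 levels was not tested, and age, animals and sort of this 1 library cannot be told apart.

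The population comparison was repeated without it. All 11 members called lower and both called higher were called again, and Fdft1 (log2 fold 0.21, adjusted p = 0.0425) and Stard4 (0.31, adjusted p = 0.035) were called higher in addition. The median log2 fold of the members was -0.27, beside -0.01 over all genes. Mvd remained the lowest, at -1.35.

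**Figure D4:**
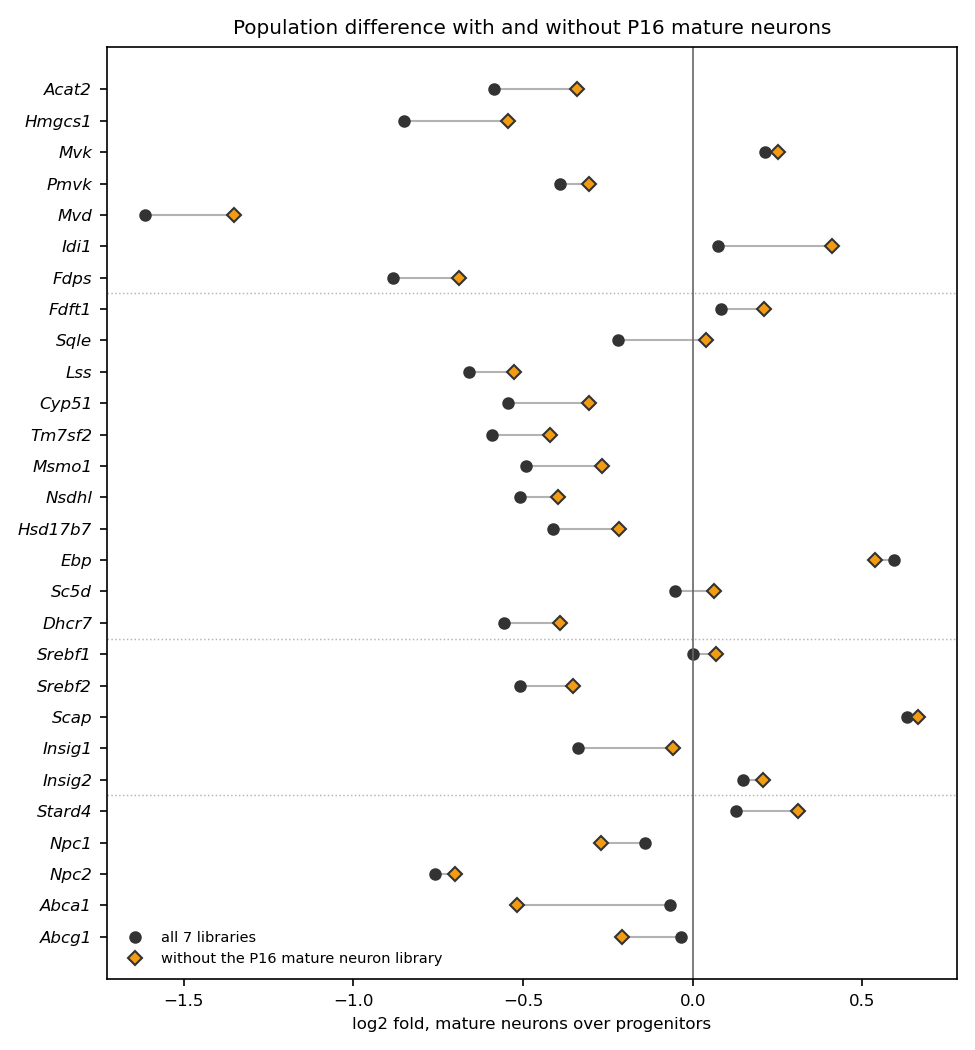
log2 fold of mature neurons over progenitors for each of the 28 genes with all 7 libraries (black circles) and without the P16 mature neuron library (orange diamonds). Hmgcs1 goes from -0.85 to -0.54 and Mvd from -1.61 to -1.35, both still below 0, while Ebp and Scap stay near 0.6.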

How the data were processed

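RNA was measured in 7 libraries of sorted mouse cells. Per the labels' protocols, pooled purified cells gave RNA by TRIzol, and a stranded TruSeq kit turned poly(A) RNA into libraries. Tools in the submitters' processing notes, listed without role or order, are RSEM, STAR 2.6.1c and bcl2fastq 2.18, with the build mm10. How strand and multi-mapping reads were handled and which annotation was used is not given in the sources. The authors deposited a table of read counts per gene and a table of TPM. Rows that name no gene held 23.53% to 27.22% of the counts of a library (11.86% to 13.91% multi-mapping) and stayed out of library sizes and tests.

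Counts were tested with edgeR 4.0.16 (R 4.3.3; quasi-likelihood, TMM, filterByExpr, Benjamini-Hochberg at 0.05 over 17975 genes): population (5 residual degrees of freedom), age slope with population (4) and the difference of slopes (3). The fits were tested on simulated data. DESeq2 1.42.0, RLE scaling, no filter, limma 3.58.1 on log2(TPM + 1) and log2(TPM + 0.1) for genes with at least 1 TPM in 3 or more libraries, other forms of age and leaving out each library were alternatives. Exon overlaps came from GENCODE M21, where 54495 of 54532 gene IDs matched, and promoters from RefSeq. The members and all lists were chosen with earlier results of these data known. From each list outside the members, up to 3 called genes in each direction with the smallest p are named; some genes this rule takes are not reported here.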

Additional observations from a re-analysis of the deposited data

Results flagged for a closer look

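In groups of 4 to 10 libraries, a library counted as far from the rest when its gap to the nearest other, divided by the range of the group, both on log2(TPM + 1), passed Dixon's 95% critical value, which chance does in about 1 in 20 groups. The rule was applied to the 4 progenitor libraries for each of the 28 members, so a few such results can come from chance alone. Mvk in the progenitor libraries gave 0.9211: P16 was at 65.8 TPM and the others at 85 to 86.9 TPM. Npc2 in the progenitor libraries gave 0.926: P3 was at 41.9 TPM and the others at 35.2 to 35.7 TPM.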

How the results depend on the processing

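The count of members lower in mature neurons was 8 to 14 over 14 alternatives and that of members higher 2 to 4 (main values 11 and 2). Leaving out each library in turn gave 8 to 12 lower and 2 to 4 higher, with 4 without the P16 mature neurons. In the P7 and P16 libraries alone, with age blocked, the fit gave 14 lower and 2 higher. The labels give no replicate numbers, so libraries were paired only by these shared ages. For age, DESeq2 called 2 members falling and 1 rising; leaving out single libraries gave 0 to 3 falling, with 3 (Acat2, Mvd and Fdps) without the P7 mature neurons. Over all genes the age slope called 0 by edgeR, but 1500 with DESeq2, 770 with no filter on low counts, 1124 with linear postnatal day and 0 to 986 when single libraries were left out (986 without the P7 mature neurons). The slope difference called 6 genes with DESeq2 and 0 to 2 when single libraries were left out. The causes of these differences were not tested. On log2(TPM + 1) the median over all genes was -0.11 and 39% of calls were higher, against 49% by counts; the members' median was -0.45. Depth limits Abca1, at under 1 TPM. The count results of Idi1 and Fdps are limited by counts that were low for their TPM, and the cause of that was not tested.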
